A study of Mus musculus with 11 samples.

Results

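Disease-associated microglia (DAM) were picked out of the brain vascular single-cell libraries of CADASIL mice and their controls by a gate on raw UMI counts (UMI, unique molecular identifier, the count of 1 captured RNA molecule). The cells were thus chosen by their own measured UMIs. Barcodes had to hold 500 or more genes and no more than 10% of UMIs from mitochondrial genes, and such a barcode was taken as a microglial cell when P2ry12, Cx3cr1, Tmem119 and Fcrls summed to at least 2 UMIs, Cldn5 and Flt1 to at most 3, and Mrc1, Cd163 and F13a1 to 0. It was taken as a DAM-gated cell when at least 3 of Spp1, Lpl, Cst7, Itgax, Clec7a and Igf1 were also detected. The gate found 84 cells among 14211 microglia, 61625 kept barcodes and 66658 barcodes in all. They came from all 11 mice, 59 from the 6 R182C-TgN3 mice and 25 from the 5 WT-TgN3 mice.

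Both groups carried a human NOTCH3 transgene beside the mouse gene, with the Arg182Cys change found in CADASIL patients in R182C-TgN3 (CADASIL mice) and the wild-type sequence in WT-TgN3 (control mice). The animals were untreated. CADASIL mice 1 (female), 2 (male) and 3 (female) and control mice 4 (male) and 5 (female) were 9 months old, whereas CADASIL mice 4 (male), 5 (female) and 6 (female) and control mice 1 (female), 2 (male) and 3 (female) were 6 months old. Each mouse gave 1 library of cells released from vessel fragments that had been caught with beads against CD31, an endothelial surface protein, so these microglia are those that stayed with the vessels and not a sample of the whole brain. The labels give 4 batches, 2 for each age, so age and batch cannot be told apart.

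Microglia are the resident macrophages of the brain. In the resting, or homeostatic, state they express P2ry12, Tmem119, Cx3cr1, Siglech and Sall1. Around amyloid plaques, demyelinated lesions and ageing white matter some of them lower these genes and raise a set for lipid handling, lysosomal breakdown and phagocytosis, and the later step of this change needs the lipid receptor Trem2 and its signalling partner Tyrobp. The gate genes belong to this set: Spp1 encodes the secreted protein osteopontin, Lpl lipoprotein lipase, Cst7 the cathepsin inhibitor cystatin F, Itgax the integrin CD11c, Clec7a the pattern receptor dectin-1 and Igf1 a growth factor.

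The libraries held 17550806 to 64215050 UMIs, with medians of 3553.5 to 7775 UMIs per kept barcode. Some libraries shared barcode sequences, up to 350 between CADASIL mice 4 and 5, which is 10.2% of the smaller library. None of the 84 DAM-gated cells was among them or among the doublets scored in each library. The gated cells were thus the same with and without those barcodes. Of all 14211 microglia, 230 had shared barcodes and 369 were scored as doublets. At shares this small 84 cells would hold few or none, so their absence is no trait of the gated cells. No mouse was left out.

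The microglial identity of the 84 cells was checked on genes outside the gate. Csf1r was detected in 82, Olfml3 in 75, Gpr34 in 73, Selplg in 68, Siglech in 66, P2ry13 in 46 and Sall1 in 44. At least 4 of 8 such genes were detected in 80 of the cells and at most 2 in 4 cells. One of the 4, from CADASIL mouse 2, was also the deepest DAM-gated cell, at 29930 UMIs. It held 353 UMIs of Mgp (matrix Gla protein), 160 of Igfbp7, 112 of Id3, 97 of Timp3 and 44 of Cald1 against 3 UMIs over the 4 microglial gate genes, so its other genes go against its label, and 39 of its UMIs were Spp1. Another, from CADASIL mouse 6, held 109 UMIs of Lyz2 (lysozyme M), the most of any gated cell. Without these 4 cells and the other microglia carrying fewer than 3 of the 8 genes, 401 genes were higher in the gated cells and 240 lower (399 and 246 with them, in the second comparison below), and Lyz2 rose by 2.25 on the log2 scale (2.32 with them).

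Clec7a and Lpl were the genes that most often brought a cell into the gate. Clec7a was detected in 78 of the 84 cells, Lpl in 68, Itgax in 48, Cst7 in 40, Spp1 in 37 and Igf1 in 18. Of 25 combinations the commonest were Lpl, Itgax and Clec7a in 16 cells, Lpl, Cst7 and Clec7a in 14, and Spp1, Lpl and Clec7a in 12. Many detections rested on little RNA: 34 of the 48 Itgax-positive and 26 of the 40 Cst7-positive cells held a single UMI.

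Spp1 was the most uneven of the 6. It gave 691 UMIs in the 84 cells, of which 210 (30.4%) lay in a single cell of CADASIL mouse 1. Its summed level in the gated cells, in CPM (UMIs of a gene per 1000000 UMIs of all genes in the same sum), was 2448, 412, 1765, 0, 194 and 0 in CADASIL mice 1 to 6 and 116, 131, 276, 239 and 24.5 in control mice 1 to 5. CADASIL mice 1 and 3 therefore stood above every other mouse, and CADASIL mice 4 and 6 reached the gate without any Spp1.

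Clec7a was at 384, 471, 491, 404, 836 and 392 CPM in the gated cells of CADASIL mice 1 to 6. In control mice 1 to 5 it was at 348, 65.5, 207, 239 and 270 CPM. The Clec7a ranges did not overlap, with means of 496 ± 172 (SD, n = 6) and 226 ± 104 (SD, n = 5). The 65.5 CPM of control mouse 2 came from 1 UMI in its 2 gated cells. For the other gate genes the ranges in CADASIL and control mice overlapped. Lpl ran from 168 to 1264 and 0 to 1288 CPM, and Cst7 from 33.65 to 999.7 and 47.9 to 262. Itgax ran from 39.2 to 179 and 47.9 to 196.5 CPM, and Igf1 from 0 to 432.7 and 0 to 196.5. Because these genes were used to choose the cells, this is a description and was not tested.

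Most of the cells only just met the gate. Exactly 3 of the 6 genes were detected in 62 cells, 4 in 11, 5 in 7 and all 6 in 4. The 62 cells just inside had a median of 7532.5 UMIs, of which 5 were from the 6 genes. The 275 microglia just outside, with 2 of the genes, had a median of 7234 UMIs, of which 3 were from these genes. Cells with at least 4 genes numbered 19 of the 59 from CADASIL mice and 3 of the 25 from control mice, and the 11 cells with 5 or 6 genes came from CADASIL mice 1 (4 cells), 2 (1), 3 (5) and 5 (1). Gated cells of CADASIL mice were also deeper, with a median of 8241 UMIs against 6382 in control mice, and the part of depth in these counts was not tested. The map of the 6 genes over single cells shows this unevenness.

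**Figure D1:**
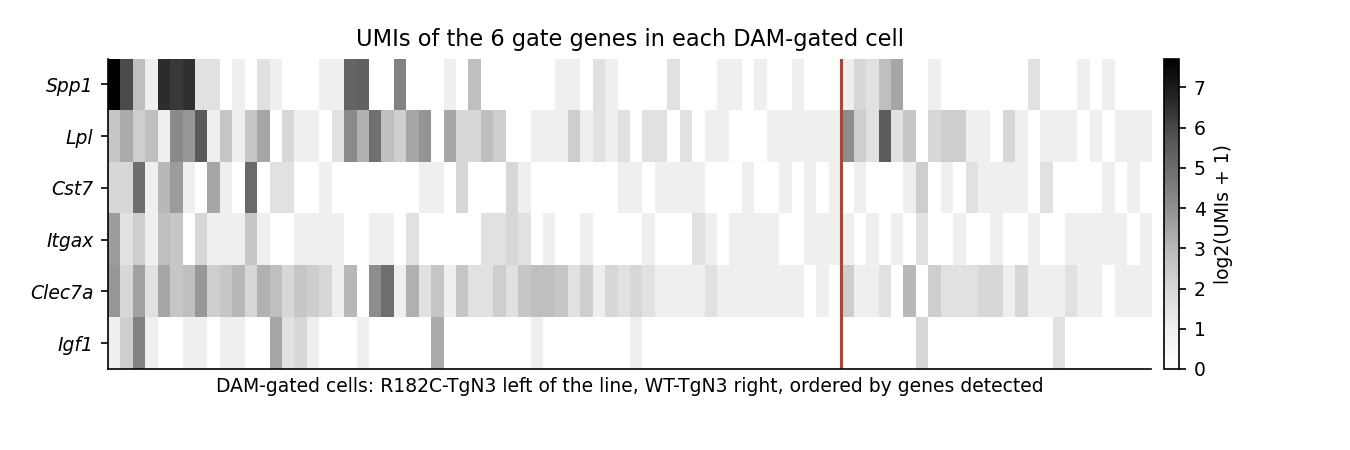
UMIs of the 6 gate genes (rows) in each of the 84 DAM-gated cells (columns), as log2(UMIs + 1) in grey. The 59 cells of R182C-TgN3 mice are left of the line and the 25 of WT-TgN3 mice right of it, each ordered by the number of genes detected. High Spp1 is held by a few cells, while Clec7a and Lpl run through most columns.

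Detection of the 6 genes was then set against endothelial barcodes of the same libraries. These had at least 4 UMIs of Cldn5 and Flt1 and no UMI of the 4 microglial gate genes. Barcodes that had caught free RNA of those 4 genes were thus left out beforehand. The endothelial shares are therefore a description and cannot give the full level from free RNA. At least 3 of the 6 were detected in 3 of 30058 endothelial barcodes, or 0.00998% (95% exact interval 0.00206 to 0.0292%), against 84 of 14211 microglia, or 0.591% (0.472 to 0.731%). Median depths per mouse overlapped, at 3061.5 to 7324.5 UMIs in endothelial barcodes and 3650.5 to 8003 in microglia. Clec7a was detected in 0.163% of endothelial barcodes and 5.72% of microglia, Cst7 in 0.0732% and 2.55%, and Lpl in 1.43% and 3.66%. Spp1 was detected in 0.193% and 1.06%, Itgax in 0.0432% and 2.01%, and Igf1 in 0.306% and 0.535%, the closest of the 6 pairs of shares. With every cell thinned to 2000 UMIs the gate kept 19 of 12221 microglia (0.155%) and 0 of 27254 endothelial barcodes, which allows a share of up to 0.011%. Intervals and limits cover counting error only.

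The first comparison asked whether the DAM-gated share of microglia differed by genotype. It was 0.742, 0.93, 0.723, 0.383, 1.62 and 0.531% in CADASIL mice 1 to 6 (20, 8, 13, 3, 9 and 6 cells). In control mice 1 to 5 it was 0.182, 0.248, 0.387, 0.748 and 0.48% (2, 2, 8, 4 and 9 cells). The groups overlapped: CADASIL mouse 4 lay below 3 of the control mice and control mouse 4 above 4 of the CADASIL mice. Single shares were imprecise, the exact 95% interval of CADASIL mouse 5 running from 0.741 to 3.05% and that of control mouse 1 from 0.022 to 0.654%.

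The mean share was 0.821% ± 0.433 (SD, n = 6) in CADASIL mice and 0.409% ± 0.222 (SD, n = 5) in control mice, a difference of 0.412 percentage points that did not pass the two-sided exact permutation test over mice (p = 0.0649). Arranged within batches, which leaves out CADASIL mouse 3 as the only mouse of its batch, the difference over 10 mice was 0.432 points (exact permutation p = 0.0556, with 0.0278 the smallest that the 72 arrangements can give). At 6 months the mean was 0.843% in 3 CADASIL and 0.272% in 3 control mice, and at 9 months 0.798% in 3 and 0.614% in 2. Without the 4 cells and other microglia carrying fewer than 3 of the 8 further microglial genes the difference was 0.384 points (exact permutation p = 0.0866). Leaving out CADASIL mouse 5 lowered it to 0.253 points (exact permutation p = 0.119), and leaving out CADASIL mouse 4 or control mouse 4 raised it to 0.4995 and 0.497 points, past the threshold (exact permutation p = 0.0318 and 0.0286).

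Whether this difference passed the threshold depended on how strict the gate was. With at least 2 of the 6 genes (359 cells) the difference was 0.377 points (exact permutation p = 0.541), and with at least 4 genes (22 cells) 0.208 points (exact permutation p = 0.0303). A limit of at least 1000 genes per barcode gave 0.495 points (exact permutation p = 0.026), and leaving Spp1 out of the gate 0.3495 points (exact permutation p = 0.039). When no Cldn5 or Flt1 UMI was allowed, 33 of the 59 cells from CADASIL mice and 21 of the 25 from control mice remained, and the difference was 0.145 points (exact permutation p = 0.403). After thinning to 2000 UMIs the means were 0.251 and 0.0565% (exact permutation p = 0.307).

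**Figure D2:**
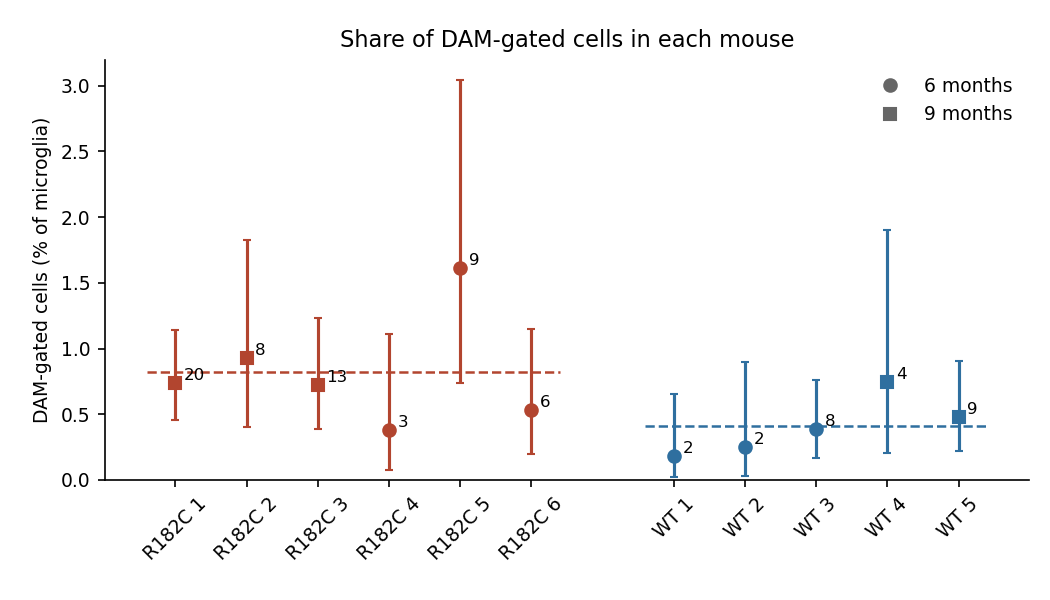
DAM-gated cells as a percentage of the microglia of each mouse, with exact 95% binomial intervals and the number of gated cells beside each point; circles are 6-month and squares 9-month mice, and dashed lines are group means. The CADASIL mice (0.383 to 1.62%) and control mice (0.182 to 0.748%) overlap.

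The second comparison set the DAM-gated cells of each mouse against its other microglia for all genes outside the gate, with UMIs summed per mouse and mouse as a block. The planned limit of at least 10 gated cells kept CADASIL mice 1 and 3 only, where 165 of 10799 genes were higher (1.53%) and 111 lower (1.03%). With all 11 mice, 399 of 8534 genes were higher in the gated cells (4.68%) and 246 lower (2.88%) at an adjusted p under 0.05 in edgeR's quasi-likelihood test. The 2 fits shared 139 of the 165 higher and 69 of the 111 lower genes. The values below come from the fit of 11 mice, scaled with DESeq2 size factors. TMM scaling moved the median log2 change over all genes from 0.0107 to -0.24 and the split to 213 higher and 687 lower, and scaling by library size alone gave 351 and 320.

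The gated cells were deeper than the other microglia in 11 of 11 mice, with medians of 4311.5 to 12707.5 against 3644 to 7999 UMIs. Against the 3 other microglia nearest in depth for each gated cell, 144 of 1527 genes were higher and 97 lower, 124 and 88 of them shared with the fit on all other microglia. Of the 14127 other microglia, 221 held more than 3 UMIs of mural genes and 64 more than 10 of the choroid plexus gene Ttr. No gated cell passed either limit, but at shares this small 84 cells would hold few or none. Without those barcodes 463 genes were higher and 248 lower, 392 and 222 of them shared.

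Apoe, the lipid carrier apolipoprotein E (chr7:19696109-19699188, minus strand, mm10), had the lowest edgeR p of all the genes named here. Its summed level in the gated cells ran from 168 to 22390 CPM across the 11 mice with a median of 5528, against 171 to 948 CPM with a median of 440 in the other microglia. It rose by 3.61 ± 0.178 on the log2 scale (SE; edgeR adjusted p = 4.42e-87) and was higher in 9 of 11 mice, all but CADASIL mouse 4 (168 against 327 CPM) and control mouse 4 (718 against 948 CPM). With DESeq2 the rise was 3.52 (adjusted p = 3.51e-08). Here and below, the SE is the log2 change divided by the square root of edgeR's F statistic. Such an SE does not measure the spread between mice. Apoe was detected in 62 of the 84 cells, and a single cell gave 21.2% of its 6400 UMIs, so the level was spread unevenly over the gated cells. In cells with Spp1 the median was 8329 CPM (37 cells) and in those without 883 CPM (47 cells). Here cells were pooled over mice and split on a gate gene, and 28 of the 37 with Spp1 came from CADASIL mice. The split is thus mixed with mouse and was not tested. Against microglia of like depth Apoe rose by 4.65 on the log2 scale in the gated cells (edgeR adjusted p = 8.63e-06).

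Among genes higher in every mouse with at least 50 CPM in the gated cells, the 12 largest changes were those of Capg, Gpr65, Lyz2, Cxcl16, Rap2b, Cstb, Cd63, Cd52, Tnf, Mif, Anxa5 and Emp3, out of 30 such genes. Capg, an actin-capping protein of macrophages, was at 23.9 to 464 CPM (median 115) in the gated cells and 15 to 25.2 CPM (median 19.7) in the others, and rose by 2.91 ± 0.286 on the log2 scale (SE; edgeR adjusted p = 1.35e-21), with only control mouse 4 inside the range of the others. Lyz2 was at 437 to 2942 CPM (median 843) against 165 to 324 (median 194), without overlap between gated and other cells, and rose by 2.32 ± 0.163 on the log2 scale (SE). Gpr65, a proton-sensing receptor, rose by 2.33 ± 0.342 on the log2 scale, from 10.2 to 22.1 CPM in the others to 27.8 to 196 CPM in the gated cells, again without overlap.

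Cxcl16, a membrane-bound chemokine, was at 95.8 to 334 CPM (median 164) in the gated cells and 35.6 to 51.9 CPM (median 43) in the others, without overlap, and rose by 2.22 ± 0.233 on the log2 scale. Tnf, which encodes tumour necrosis factor, was at 269 to 1581 CPM (median 642) against 134 to 261 (median 212) without overlap and rose by 1.86 ± 0.164. The cytokine Mif rose by 1.85 ± 0.205 and the surface glycoprotein Cd52 by 1.92 ± 0.173, both without overlap. Cd63, a tetraspanin of late endosomes, rose by 2.00 ± 0.156, and outside control mouse 1 (232 CPM) its gated cells lay above the highest level in the others, 354 CPM. The small GTPase gene Rap2b, the cathepsin inhibitor Cstb, the phospholipid-binding Anxa5 and the membrane gene Emp3 rose by 2.13, 2.04, 1.77 and 1.64. All 12 remained past the threshold with DESeq2, and 10 in the fit of 2 mice, where Gpr65 and Rap2b did not pass (edgeR adjusted p = 0.304 and 0.206).

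**Figure D3:**
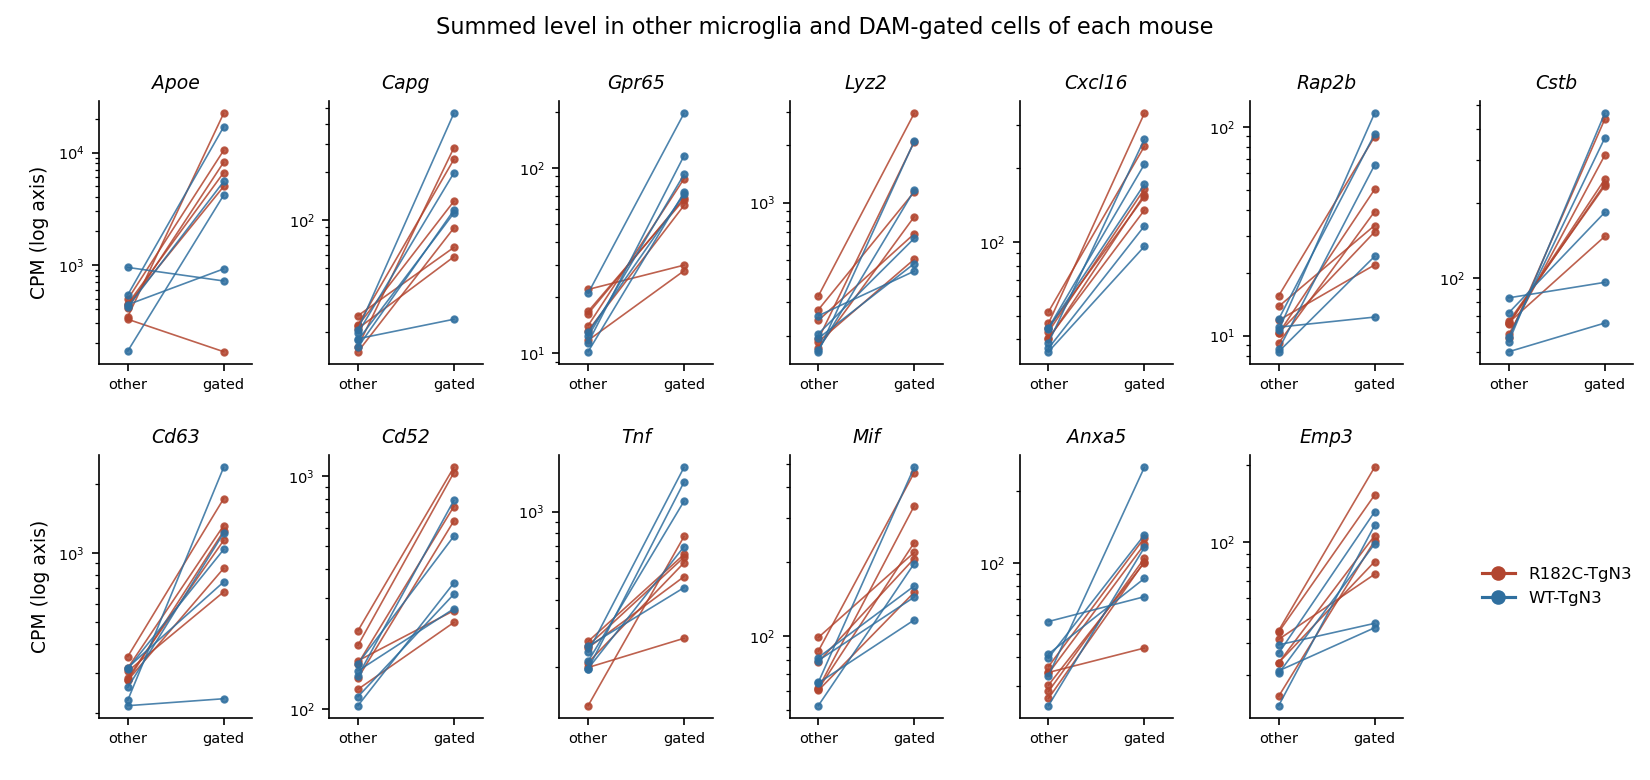
Summed CPM (log axis) of Apoe and the 12 genes with the largest rise in every mouse, in the other microglia and the DAM-gated cells of each mouse, joined by a line; red R182C-TgN3 and blue WT-TgN3. Each line rises except Apoe in CADASIL mouse 4 and control mouse 4.

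Short promoter stretches are shown for 5 of the genes that moved with the gated cells, because their factors, PU.1 of the macrophage lineage and the lysosomal regulators MITF and TFEB, are known in microglia. RefSeq promoters (250 bases before to 50 after the start, GRCm38.p6) were found for 9 of the 12 genes with the largest rises, 10 promoters in all. The letters GGAAGT on either strand, a core that PU.1 binds, were in 5 of these 10 (Capg, Cd63, Lyz2, Mif and Tnf) and in 23.8% of all 32851 promoters, while CACGTG was in 0 of 10 and 7.15% and TGANTCA, an AP-1 core, in 0 of 10 and 7.81%. Counted by gene, so that genes with several promoters count once, GGAAGT was in 33.1% of 320 genes called higher, 30.1% of 196 called lower and 26.5% of all 27025 genes. It was in 0 of 7 promoters of the genes with the largest falls. Among the other named genes Ctsd, Plin2, Ldha, Nceh1 and Siglech held CACGTG, which reads the same on both strands. Siglech fell in the gated cells, and the number of other named genes searched is not given here. Counted by gene, CACGTG was in 10.6% of those called higher, 12.2% of those called lower and 8.09% of all genes. Its share was thus no higher among genes that rose than among genes that fell. The matched letters are in capitals, in stretches of 30 bases read 5′ to 3′ along the gene's strand.
Capg, chr6:72549423-72549452, plus strand: agtggcgaagagGGAAGTtagaagctagct
Lyz2, chr10:117282355-117282384, minus strand: agatcggtaggaACTTCCtgttttgcacac
Tnf, chr17:35202073-35202102, minus strand: tttctccaccaaGGAAGTtttccgagggtt
Ctsd, chr7:142387908-142387937, minus strand: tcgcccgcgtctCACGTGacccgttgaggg
Plin2, chr4:86670046-86670075, minus strand: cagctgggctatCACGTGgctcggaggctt
A match of letters is a description of the sequence, and no binding was measured.

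Genes known to rise in DAM and outside the gate moved together. Of the first-stage genes, which rise without Trem2, 7 of 7 rose (median log2 change 1.21, against 0.0107 over all genes): Apoe, Lyz2, Ctsb, Fth1, Ctsd, B2m and Tyrobp. The iron storage gene Fth1 was at 1044 to 9827 CPM in the gated cells and 1207 to 2012 in the others and rose by 1.21 ± 0.149, in 10 of 11 mice. Tyrobp, the Trem2 partner, rose by 0.64 ± 0.149 in 9 of 11 mice, a call lost with TMM. Of the Trem2-dependent genes 19 of 22 could be tested, and 16 rose and 0 fell (median 1.02), or 11 with TMM. These lists were drawn from published DAM signatures, so their direction is not independent of the choice of gate.

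The lectin Lgals3 and the inhibitory receptor Lilrb4a changed most in the second list, yet not in every mouse. Lgals3 was at 0 to 522 CPM (median 184) in the gated cells and 3.02 to 13.7 (median 7.46) in the others, rose by 4.60 ± 0.307 on the log2 scale (edgeR adjusted p = 3.17e-47), and was higher in 8 of 11 mice and at 0 in 3. Only 26 of the 84 cells held it, with 52.5% of its UMIs in 5 cells. Lilrb4a rose by 3.90 ± 0.276 and was higher in 7 mice and at 0 in the other 4. Csf1, the growth factor of microglia, rose by 1.88 ± 0.186 and was higher in 10 of 11 mice. Trem2 itself rose by 0.46 ± 0.149 (edgeR adjusted p = 0.0334, higher in 10 of 11 mice), but this call was lost under 15 of 34 other settings, TMM, library size and the fit of 2 mice among them.

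Homeostatic genes were lower. All 18 could be tested, and 10 fell while 0 rose (median log2 change -0.60; 14 fell with TMM): Crybb1, Selplg, Siglech, Slc2a5, P2ry13, Ltc4s, Txnip, Gpr34, Sall1 and Itgam. Siglech, a sialic acid receptor of microglia, was at 127 to 812 CPM (median 433) in the gated cells and 653 to 953 (median 831) in the others, lower in 11 of 11 mice, and fell by 1.00 on the log2 scale (SE 0.168; edgeR adjusted p = 1.87e-07). Crybb1 was at 0 to 131 CPM against 126 to 279 and fell by 2.11 (SE 0.277) in 11 of 11 mice. Selplg fell by 0.99 (SE 0.165) in 10 of 11 mice and the fructose transporter gene Slc2a5 by 1.61 (SE 0.275) in 9. The summed level of the list was nevertheless higher in the gated cells of 4 mice. P2ry12 and Tmem119, which served to choose microglia, had means of 731 and 351 CPM in the gated cells and 1522 and 640 in the others. The other genes that served to choose microglia differed less. Cx3cr1 had means of 2120 and 2666 CPM and was higher in the gated cells of 3 mice. Fcrls had means of 746 and 874 CPM and was higher in those of 4. These values are given as a description.

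Lysosomal and lipid genes rose in part. Of 26 lysosomal genes tested 14 rose and 0 fell (median 0.53). The proteases Ctsb, Ctsz and Ctsd were higher in 11 of 11 mice, with Ctsb at 1284 to 3015 CPM (median 2019) against 636 to 904 (median 787) and a rise of 1.42 ± 0.147. Ctsz rose by 1.16 ± 0.146 and Ctsd, whose promoter is shown above, by 0.97 ± 0.145. With TMM 5 of the 26 remained called. Of 14 lipid genes tested of 20 listed, 9 rose and 0 fell (median 0.80; 5 rose with TMM): the lipid droplet coat gene Plin2 by 2.16 ± 0.249 in 9 of 11 mice, the cholesterol ester hydrolase gene Nceh1 by 1.99 ± 0.33 in 10, and the scavenger receptor gene Cd36 by 2.08 ± 0.416, though Cd36 was detected in 9 cells, was at 0 in the gated cells of 6 mice and was not called by DESeq2 (adjusted p = 0.068).

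Phagocytic receptors did not move as a group. Of 13 tested, 4 rose and 0 fell (median -0.23), namely Axl, Cd36, Tyrobp and Trem2, and with TMM 2 rose and 5 fell. Axl, a receptor for phosphatidylserine-bound ligands, was at 0 to 232 CPM (median 65.5) in the gated cells and 3.02 to 13.6 in the others and rose by 3.16 ± 0.352, in 8 of 11 mice. Timd4, Marco, Megf10 and Cd93 of this list had no UMI in the gated cells. Of 8 complement genes 0 rose and 1 fell, the receptor subunit gene Itgam (by 0.57, SE 0.179; median of the list 0.20).

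Inflammatory lists rose in part. Of 16 chemokine and cytokine genes tested 9 rose and 0 fell (median 1.06), namely Tnf, Csf1, Cxcl16, Ccl4, Ccl6, Cxcl2, Ccl3, Ccl9 and Il1b, while with TMM 9 rose and 2 fell. Ccl4 was at 1750 to 12330 CPM (median 7294) in the gated cells and 2055 to 5652 (median 3309) in the others and rose by 1.14 ± 0.15, in 9 of 11 mice. Of 11 interferon response genes 5 rose and 0 fell (median 0.95): Cxcl10 by 2.19 ± 0.215, Ifi204 by 2.05 ± 0.354, Isg15 by 1.67 ± 0.312, Ifi27l2a by 1.14 ± 0.283, and Ifitm3 by 0.95 ± 0.28. The deep cell of CADASIL mouse 2 held 54.3% of the Ifitm3 UMIs, and without the barcodes of few microglial genes Ifitm3 changed by -0.059 (edgeR adjusted p = 0.967). Cxcl10 was higher in 6 mice and at 0 in the other 5, 23 of the 84 cells held it, and DESeq2 did not call it (adjusted p = 0.617).

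Antigen presentation genes rose in part. Of 13 tested 7 rose and 0 fell (median 0.56), and in the fit of 2 mice 2 rose. The class I genes B2m, H2-D1 and H2-K1 rose by 0.86 ± 0.147, 0.74 ± 0.157 and 0.56 ± 0.158, higher in 10, 8 and 9 of 11 mice. The invariant chain gene Cd74 was at 138 to 5763 CPM (median 580) against 106 to 316 (median 196) and rose by 1.81 ± 0.173 in 10 of 11 mice, with UMIs in 55 of the 84 cells. The class II genes H2-Ab1, H2-Eb1 and H2-Aa rose by 2.53, 2.17 and 2.12, but H2-Eb1 and H2-Aa were higher in 3 of 11 mice each, and none of these 3 was called by DESeq2 (adjusted p of 0.156, 0.967 and 0.901). In the fit of 2 mice Cd74 changed by 0.23 and H2-Ab1 by 0.42 (edgeR adjusted p = 0.885 and 0.89), while H2-Eb1 and H2-Aa changed by -1.19 and -2.19. A single cell each of CADASIL mouse 2, control mouse 5 and control mouse 2 held 210, 163 and 134 UMIs of these 3 genes, 93.4% of the 543 in all gated cells, and the next cell held 8. They also held 54.0% of the Cd74 UMIs and carried 5, 4 and 4 of the 8 further microglial genes.

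Genes of energy metabolism rose in part. Of 15 glycolysis and hypoxia genes tested 8 rose and 0 fell (median 0.92), with TMM also 8: Gapdh by 0.98 ± 0.167 in 10 of 11 mice, Pkm by 1.21 ± 0.216, Ldha by 1.28 ± 0.232 and Pgk1 by 1.501 ± 0.286, each in 9. Of 37 nuclear genes of oxidative phosphorylation 9 rose and 0 fell (median 0.52), Cox7a2, Cox6c, Cox5a and Atp5d by 0.78, 0.69, 0.77 and 0.79, and with TMM 0 rose and 0 fell. Of 5 cell cycle genes tested of 18, 0 passed the threshold (median 0.47), and Mki67 and Top2a had no UMI in the 84 cells.

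Genes induced by tissue dissociation moved little. Of 20, 2 rose (Rgs1 by 0.96 ± 0.16 and Nfkbia by 0.56 ± 0.153) and 2 fell (Btg2 by 0.46, SE 0.147, and Fosb by 0.55, SE 0.161), with a median of -0.18, and with TMM 1 rose and 8 fell. Their summed level was lower in the gated cells of 10 mice, at 19450 to 39180 CPM against 23640 to 42880, and its part in the other results was not tested.

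Markers of other cells that the vessel fragments could hold were compared in the same way. Of 11 endothelial genes 0 rose and 0 fell (median -0.40), with a sum of 287 to 731 CPM in the gated cells and 515 to 798 in the others. The gate genes Cldn5 and Flt1, given as a description, went opposite ways. Cldn5 had means of 7.58 CPM in the gated cells and 29.3 in the others and was lower in 11 of 11 mice. Flt1 had means of 40.9 and 26.4 CPM and was higher in the gated cells of 8 of 11 mice, with 35 UMIs in all of them. Border macrophage markers gave 2 testable genes of 15, of which Dab2 rose by 1.46 ± 0.411 (not called by DESeq2, adjusted p = 0.152), with 0 to 720 CPM summed against 106 to 188 and Lyve1 and Cd209f at 0 UMIs. Monocyte and neutrophil markers gave 2 of 14, of which the adhesion receptor gene Cd44 rose by 1.61 ± 0.296, with 0 to 632 CPM summed against 32.5 to 127 and S100a8, S100a9, Retnlg and Ly6g at 0 UMIs. Neural and glial markers gave 2 of 15, neither past the threshold (median 0.20), with a sum of 65.5 to 161 against 65.0 to 130 CPM and Snap25, Gfap and Mog at 0 UMIs. The part of these markers in the results was not tested.

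The largest falls were of genes of mural and choroid plexus cells. Tagln, Acta2, Ttr, Myl9, Tpm2, Sparcl1, Dmd and Nos1ap, which led the 79 genes lower in every mouse, all passed the threshold. In all 84 cells Tagln gave 1 UMI, Myl9 2, Acta2, Tpm2 and Sparcl1 3 each and Dmd 5, so the fitted changes of these 6, from -6.82 to -3.16 on the log2 scale, depend on the fitted floor and their order is no measure of size. Ttr, with 40 UMIs, fell by 4.68 and Nos1ap, with 21, by 2.15 on the log2 scale. Of 7 mural genes tested 5 fell (median -4.53, summed 0 to 588 CPM in the gated cells against 86.8 to 1804), and of 3 choroid plexus genes all 3 fell, Ttr, Enpp2 and Ecrg4 (median -3.00, summed 0 to 263 against 42.1 to 6982 CPM). Acta2 was at 0 in the gated cells of 9 mice and at 19.4 to 530 CPM in the others. Without the barcodes over the mural or Ttr limit Ttr changed by -0.77 (edgeR adjusted p = 0.0563) and Enpp2 by 0.79 (edgeR adjusted p = 0.418), and Tagln, Acta2, Myl9, Tpm2, Sparcl1 and Dmd were too low to test. Nos1ap, at 0 to 116 CPM in the gated cells and 116 to 200 in the others, fell by 2.16 on the log2 scale without them too (edgeR adjusted p = 2.97e-10).

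**Figure D4:**
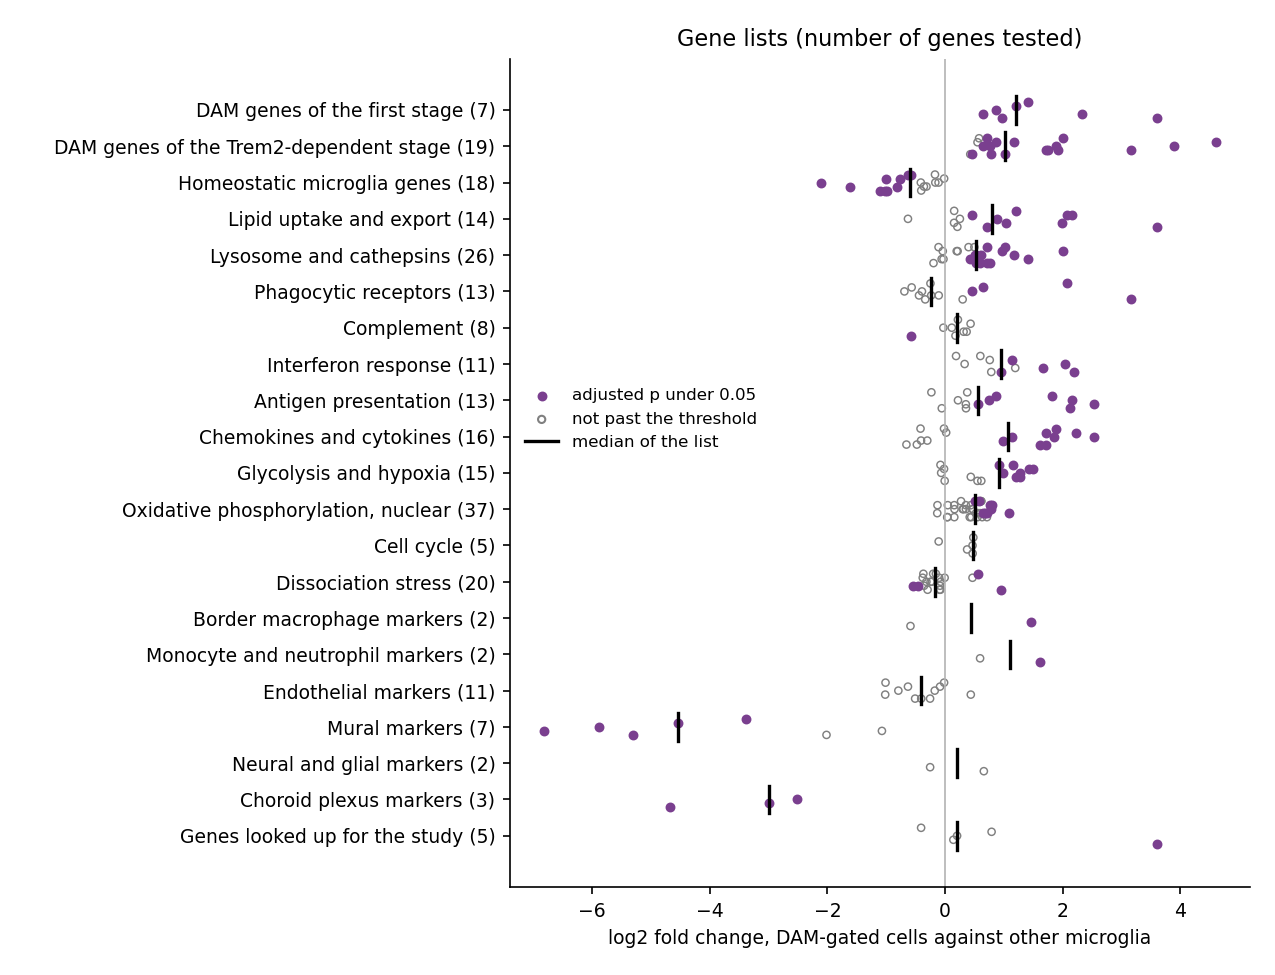
Log2 fold change of each tested gene, DAM-gated cells against other microglia over 11 mice, by gene list with the number tested; filled points passed an adjusted p of 0.05 and bars are list medians. The DAM lists lie right of 0, the homeostatic list left, and the mural and choroid plexus lists farthest left.

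Apoe, Polg2 and Nfe2l2, which the study names for microglia, were also looked up, with Milr1 and Nfe2l3 added to the list here. Of these 5, Apoe rose and the other 4 did not pass the threshold: Milr1 changed by 0.79 (SE 0.361), Nfe2l2 by 0.21 (SE 0.167), Polg2 by 0.14 (SE 0.41) and Nfe2l3 by -0.41 (SE 0.531), with edgeR adjusted p of 0.193, 0.567, 0.919 and 0.779 and a list median of 0.21. Milr1 passed with at least 2 of the 6 gate genes (1.05 on the log2 scale, edgeR adjusted p = 1.7e-05) and after thinning (2.08 on the log2 scale). Mouse Notch3, the receptor of mural cells, had no UMI in the gated cells and lay at 1.32 to 37.8 CPM in the other microglia, and human NOTCH3 was found in the gated cells of 1 mouse.

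Levels of some genes outside the gate, chosen after their values were seen, were also set against the number of gate genes detected. Apoe averaged 211 ± 56.4 CPM in microglia with 0 of the 6 genes, 979 ± 511 with 1, 4758 ± 2638 with 2, 6834 ± 6593 with 3 (SD, n = 11 mice each) and 8474 ± 9767 with 4 to 6 (SD, n = 7). It was higher with 2 genes than with 0 in 11 of 11 mice. The 275 cells with 2 genes, which are not DAM-gated, thus lay nearer in mean Apoe to the cells with 3 than to those with 0. Lyz2 averaged 163, 439, 952, 952 and 1503 CPM. Cd63 averaged 264, 359, 613, 1109 and 1155 CPM over the same steps and Ctsb 752, 871, 1246, 1978 and 2311. Siglech averaged 875, 716, 522, 447 and 365. Other genes took other courses: Ctsd averaged 2415, 2353 and 2638 CPM and Trem2 1118, 1094 and 1136 with 0, 1 and 2 genes before both stood higher inside the gate, and Ifi27l2a was highest with 2 genes, at 181.6 CPM against 78.7 with 3. Depth moved along the same steps, from a median of 4784 UMIs with 0 genes to 7234 with 2 and 7532.5 with 3, and its part in these levels was not tested.

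**Figure D5:**
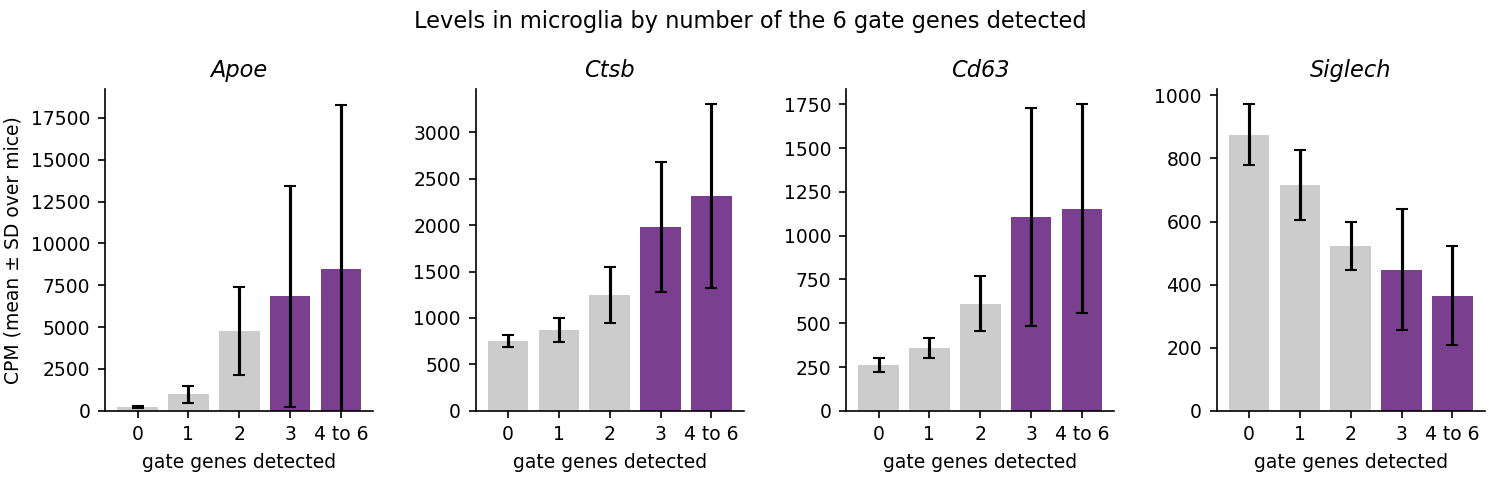
CPM of 4 genes outside the gate in microglia with 0, 1, 2, 3 or 4 to 6 of the 6 gate genes, as the mean over mice with the SD (11 mice, and 7 for 4 to 6 genes; the lower bar of Apoe at 4 to 6 is cut at 0). Purple bars are DAM-gated cells; Apoe, Ctsb and Cd63 are higher and Siglech lower along the steps.

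The third comparison set the DAM-gated cells of the 6 CADASIL mice against those of the 5 control mice. With at least 1 gated cell per mouse, since the limit of 10 left no control mouse, 666 genes had enough UMIs, and 0 passed an adjusted p of 0.05 in edgeR (0%), with 15 at an unadjusted p under 0.05. DESeq2 also called 0, with 14 at an unadjusted p under 0.05. The lowest p were those of Glipr1 (1.32 ± 0.482 on the log2 scale, 284 ± 140 against 90.3 ± 91.6 CPM, SD), Cox4i1 (0.93 ± 0.345) and Pdgfb (-1.03 ± 0.403), each with an edgeR adjusted p of 1. Apoe was at 8809 ± 7504 CPM in CADASIL and 5660 ± 6649 in control mice, a difference of 0.63 on the log2 scale with a 95% interval from -0.93 to 2.18 that includes 0.

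The fourth comparison asked whether the difference between gated and other microglia itself differed by genotype. Of 8534 genes 9 passed in edgeR (0.105%): Id3, Lsamp, Timp3, Igfbp7, Sdk1, Mgp, Ifitm3 and Alcam with a higher difference (gated minus other) in CADASIL mice, and Rdm1 with a lower one. DESeq2 called 0 (175 at an unadjusted p under 0.05). The deep cell of CADASIL mouse 2 described above held 99.2% of the Mgp, 99.1% of the Lsamp, 98.8% of the Igfbp7, 95.1% of the Timp3, 91.8% of the Id3 and 54.3% of the Ifitm3 UMIs of all gated cells. Without the barcodes carrying fewer than 3 of the 8 further microglial genes 2 genes passed (Rdm1 and Sdk1), and without CADASIL mouse 2 8 passed, of which 3 (Alcam, Rdm1 and Sdk1) were among the 9. With the replicate block 7 passed, and Sdk1, Rdm1 and Alcam did not (edgeR adjusted p = 0.136, 0.365 and 0.718). Ifitm3 was at 25.05 ± 27.5 CPM in the gated cells and 59.96 ± 23.4 in the other microglia of control mice. Sdk1 and Alcam did not rest on that cell, which gave 0 of 41 and 13 of 106 UMIs. Sdk1 was lower in the gated cells of both genotypes, at 65.9 ± 41.2 against 120 ± 20.2 CPM in CADASIL mice (SD, n = 6) and with no UMI against 134 ± 18.4 CPM in control mice (SD, n = 5). For Rdm1, 79 of the 101 UMIs of the control mice's gated cells came from 1 mouse.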

How the data were processed

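Cells of brain vessel fragments from 11 mice were sequenced with the 10x Genomics 3′ kit, 1 library per mouse. Reads were aligned by the authors to mm10 plus human NOTCH3 (Cell Ranger 7.0.0), and they deposited whole-number UMI counts per gene and called barcode, without normalization. The limits of the gate were applied to those counts, and UMIs were summed per mouse over DAM-gated cells and over the other microglia, leaving out the 15 gate genes and ribosomal, mitochondrial, Gm and Rik genes. The sums were compared with edgeR 4.0.16 (quasi-likelihood test, filterByExpr, mouse as a block, Benjamini-Hochberg threshold 0.05), and DESeq2 1.42.0 was an alternative. The design asked for at least 10 gated cells per mouse with TMM scaling, which left 2 mice and no genotype comparison. A fit of all 11 mice with DESeq2 size factors in edgeR was added after the data were seen, since TMM shifted the median gene where gated sums were small. The paired fits of 2 and of 11 mice were run on simulated data, and the genotype and interaction fits were not. Shares were compared by two-sided exact permutation tests over mice, and single shares have 95% Clopper-Pearson intervals. The sum of the gated cells per mouse was 8623 to 179737 UMIs, which limits every value. Mice were grouped by the genotype in their labels. The genes named are the 12 largest rises and 8 largest falls that went the same way in every mouse at 50 CPM or more, up to 4 genes of lowest p per list, members called against their list's majority, 5 genes looked up for the study, the gate genes and, between genotypes, the genes called or the 3 of lowest p. The members and the 21 gene lists were chosen with earlier results of these data known. The study left 1 control library out of its microglia analysis; it is not named in the labels and all 11 were used here. Gene positions are from GENCODE M21 and promoters from RefSeq. Single values of some listed genes are not reported here.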

Additional observations from a re-analysis of the deposited data

Results flagged for a closer look

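Of 40 sets of 5 or 6 mice checked for a value far from the others (the share, the 6 gate genes, Apoe and the 12 named rises, by genotype), 8 had one. Chance gives about 1 in 20 for normally spread values, which sums of few UMIs need not be. The count is therefore not read as an excess, and the gate genes also served to choose the cells. Among the gate genes in the DAM-gated cells, Lpl was at 1264 CPM in CADASIL mouse 3, and CADASIL mouse 5 stood apart for Cst7 (999.7 CPM), Clec7a (835.5 CPM) and Igf1 (432.7 CPM). In control mice, Lpl was at 1288 CPM in mouse 3 and Igf1 at 196.5 CPM in mouse 2. Outside the gate, Anxa5 was low in CADASIL mouse 6, at 43.6 CPM, and Mif was at 483 CPM in control mouse 3. The gated cells of these mice number 2 to 13, and no explanation was tested.

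The interaction of gate and genotype, for the change from other to DAM-gated microglia, passed the threshold for 9 genes in edgeR and 0 in DESeq2. On the log2 scale (CADASIL minus control) the difference was 12.25 for Id3, 11.9 for Lsamp, 11.38 for Timp3, 11.36 for Igfbp7, 11.29 for Sdk1, 5.03 for Mgp, 3.13 for Ifitm3, 2.71 for Alcam and -2.01 for Rdm1. The values above 11 are of genes with no UMI in the gated cells of control mice, so they depend on the fitted floor and are no measure of size. Adjusted p ran from 0.000297 (Id3) to 0.0192 (Alcam) in edgeR. The deep cell of CADASIL mouse 2, whose genes go against its label, held most UMIs of several of these genes in the gated cells. Its part was 91.8 to 99.2% for Id3, Lsamp, Timp3, Igfbp7 and Mgp and 54.3% for Ifitm3. Without the barcodes of few microglial markers 2 genes passed, Rdm1 and Sdk1.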

How the results depend on the processing

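The share difference (0.412 points) stayed positive under all alternatives run. It passed the threshold with at least 1000 genes (0.495), at least 4 gate genes (0.208), without Spp1 (0.3495) and without Clec7a (0.2003, chosen after seeing the data), and leaving out 1 mouse at a time gave 0.253 to 0.4995 points. Paired by age and label number (replicate block, 5 pairs) it was 0.432 points (exact permutation p = 0.125, smallest possible 0.0625). In the block, 0 genes differed between genotypes and 7 interacted, 6 of them shared with the fit without it. Both mice of each pair were of the same batch, and CADASIL mouse 3, alone in its batch, was left out. Sex differed within every pair but that of CADASIL mouse 6 and control mouse 3, so the block does not balance sex. Deviations of paired mice correlated at 0.126, 0.0766, 0.0143, 0.133 and 0.306 in the gated cells (both mice matched each other best in 1 of 5 pairs) and at 0.488, 0.338, 0.154, 0.251 and 0.433 in the other microglia (4 of 5).

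In 2 mice, 165 higher and 111 lower genes became 92 and 6 with DESeq2 and 109 and 21 without the mouse block. The lower genes numbered 73 with DESeq2 size factors and with the 3 nearest microglia, and 71 by library size. The fit of all 11 mice gave 399 and 246. With at least 2 gate genes all 11 mice met the planned limit of gated cells, and the planned fit gave 709 and 629. Gate and number of mice both changed there, so their parts cannot be told apart. In 11 mice, 399 and 246 became 747 and 583 with at least 2 gate genes, 151 and 31 with at least 4, 217 and 115 without Cldn5 or Flt1 UMIs, 222 and 124 after thinning, 213 and 687 with TMM, and 144 and 97 with the nearest microglia. Without Clec7a 103 were higher. Leaving out 1 mouse gave 272 to 403 higher and 179 to 287 lower. Between genotypes, no filter on low counts gave 50 genes in place of 0. The 9 interacting genes became 0 with at least 2 gate genes, without Clec7a or with DESeq2, 3 with at least 4 gate genes, 5 without Spp1, after thinning or without barcodes over the mural or Ttr limit, 2 with a microglial sum of at least 5 or without barcodes of few microglial markers, 19 with no filter, and 2 to 13 leaving out 1 mouse (3 without control mouse 4, 2 without control mouse 5).

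Of 65 named genes called, 25 stayed past the threshold in the same direction under every alternative that tested them, the fit of 2 mice included, and 7 were lost with TMM. Signs turned for H2-Eb1 after thinning (-0.81) and in the 2 mice (-1.19), H2-Aa with DESeq2 (-0.41) and in the 2 mice (-2.19), Nfkbia with at least 4 gate genes (-0.130) and without Clec7a (-0.29), and Enpp2 without barcodes over the mural or Ttr limit (0.79). Among genes not called, Polg2 was -0.039 without Spp1, -0.23 with a microglial sum of at least 5, without barcodes of few microglial markers and in the 2 mice, -0.21 after thinning, -0.12 with TMM, -1.91e-06 with DESeq2, and -0.37 to 0.276 leaving out 1 mouse (-0.37 and -0.012 without CADASIL mouse 2 and control mouse 3). Nfe2l2 was -0.043 without Clec7a and -0.10 with TMM, and Nfe2l3 0.91 after thinning and 0.17 without Clec7a. The cause was not tested. With 2 to 20 gated cells per mouse, small changes were not detectable. At 20 cells no fit of more than 1 mouse could be made, and no mouse could be left out of the fit of 2.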

Other observations

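The 37 gated cells with Spp1 had a median homeostatic sum of 23370 CPM and the 47 without 31410 CPM, at like depth (medians of 7839 and 7956 UMIs). Lgals3 was detected in 12 of the 37 and 14 of the 47. The cells were pooled over mice, the split was made on a gate gene after its values were seen, and no difference was tested.

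Among programmes that the gate did not use, at least 3 genes of the interferon list were detected in 45 of the 84 cells, and 1 cell held 15 of them. Of markers of other cells, at least 3 of 17 endothelial genes were detected in 34 cells. At least 3 border macrophage markers were detected in 2 cells, at least 3 monocyte or neutrophil markers in 2, and at least 3 mural markers in 1. These counts are given for the gated cells alone, without the shares in the other microglia, which were less deep. They therefore show no trait particular to the gated cells. Over both genotypes the mean DAM-gated share was 0.558% in the 6 mice of 6 months and 0.724% in the 5 of 9 months, and 0.666% in 7 females and 0.577% in 4 males.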
